A study of Homo sapiens with 24 samples.

Results

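The HOX cluster genes are the 39 human genes whose symbol is HOXA, HOXB, HOXC or HOXD followed by a number, and all 39 were among the 61544 genes listed in the organoid count table. Membership was set by symbol alone, but the gene family was chosen with earlier results of these data known. The NPC (neural progenitor cell) table lists 10221 genes, and 5 of them are HOX genes, among them HOXA2, HOXA7, HOXB1 and HOXD13. The cells were H9, a human embryonic stem cell line in wide use. Before differentiation, the stem cells received a lentivirus coding for a short hairpin RNA and were selected with 1 µg/ml puromycin, controls included. The groups were the KDM2A knockdown hairpins sh1 and sh4 and a scrambled hairpin in cells labelled wild type (NC). Each was represented by 3 libraries of cerebral organoids (aggregate cultures of neural tissue) at day 30 and by 5 libraries of NPCs. Where the labels call the hairpin treatments siRNA, the design text speaks of lentiviral hairpins made from siRNA sequences. The labels do not tell separate cultures from repeat libraries of 1 culture, so each p-value rests on the spread between the given libraries, which may be technical.

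HOX genes code for homeodomain transcription factors that give cells along the head-to-tail axis their regional identity. Their order in each cluster follows their order along that axis: low numbers (paralog groups) are used in the hindbrain, central numbers in the neck and trunk, and high numbers in the lumbar and tail regions, limbs and urogenital tract. The forebrain, which cerebral organoids are grown to model, normally keeps the clusters silent under Polycomb repression. KDM2A, the target of both hairpins, is a demethylase of lysine 36 of histone H3 with a zinc finger domain that binds unmethylated CG dinucleotides, which are dense in HOX promoters.

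On GRCh38 with GENCODE 29 positions, the HOXA genes (11) lie on chromosome 7 and the HOXB genes (10) on chromosome 17 from 48528526 to 48729178, both on the minus strand. The HOXC genes (9) lie on chromosome 12 from 53938765 to 54056030 and the HOXD genes (9) on chromosome 2 from 176092891 to 176190907, both on the plus strand. The 250 bases before the start were available from RefSeq (GRCh38.p14) for 20 of the 39 genes, as 26 distinct windows. These windows held a median of 19.5 CG dinucleotides (range 0 to 40), against 11 in all 35116 windows of the genome. The following windows are shown because their genes carry the results below. HOXA4, HOXC4 and HOXD8, with CG in capitals, were central genes. HOXA4 and HOXD8 were at or near 0 in the control organoids, and HOXC4 was low but detected in each control library. HOXB1, with the motif TGATNNAT in capitals, was the listed HOX gene with the highest level in NPCs. TGATNNAT is the site shape bound by HOX proteins paired with PBX. It was searched on both strands, found in the windows of HOXA2, HOXB1 and HOXD11 (11.5% of the distinct HOX windows) and in 6.47% of all windows, and a match of letters is a description, not evidence of binding.
HOXA4 window, minus strand, chr7:27130758-27131007, 26 CG: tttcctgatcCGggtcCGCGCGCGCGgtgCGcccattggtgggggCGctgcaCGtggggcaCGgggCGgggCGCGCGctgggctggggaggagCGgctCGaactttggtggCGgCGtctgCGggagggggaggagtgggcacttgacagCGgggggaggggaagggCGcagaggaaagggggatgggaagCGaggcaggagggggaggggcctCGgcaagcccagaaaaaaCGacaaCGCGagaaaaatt
HOXC4 window (also given for HOXC5), plus strand, chr12:54016638-54016887, 14 CG: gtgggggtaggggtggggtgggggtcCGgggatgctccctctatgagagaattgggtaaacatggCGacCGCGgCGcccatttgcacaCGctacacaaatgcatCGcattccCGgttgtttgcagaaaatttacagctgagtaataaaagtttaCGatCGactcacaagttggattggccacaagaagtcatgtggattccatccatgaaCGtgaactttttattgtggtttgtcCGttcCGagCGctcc
HOXD8 window, plus strand, chr2:176129455-176129704, 28 CG: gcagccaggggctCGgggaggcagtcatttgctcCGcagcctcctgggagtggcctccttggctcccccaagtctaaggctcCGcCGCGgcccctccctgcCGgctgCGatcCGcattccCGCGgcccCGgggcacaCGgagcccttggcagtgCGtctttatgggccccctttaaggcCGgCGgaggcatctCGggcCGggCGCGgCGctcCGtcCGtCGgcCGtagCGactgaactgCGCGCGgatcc
HOXB1 window, minus strand, chr17:48531012-48531261, 7 CG: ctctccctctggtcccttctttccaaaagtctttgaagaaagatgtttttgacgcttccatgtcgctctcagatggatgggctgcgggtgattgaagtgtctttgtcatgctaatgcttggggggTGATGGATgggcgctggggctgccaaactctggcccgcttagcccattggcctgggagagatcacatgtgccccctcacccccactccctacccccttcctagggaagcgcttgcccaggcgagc

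Levels are given in CPM (library totals scaled by the TMM method). The organoid libraries held 15.9 to 18.9 M counts. Mitochondrial genes took 3.14 to 3.29% of them in sh1, 5.05 to 6.02% in sh4 and 3.07 to 3.5% in NC organoids, and the 10 most abundant genes took 6.73 to 7.41%, 11.8 to 14.4% and 5.38 to 5.81%. KDM2A was not lower in the organoids: it measured 111, 117 and 103 CPM in the libraries labelled sh1, 105, 95.5 and 103 CPM in those labelled sh4, and 99.9, 105 and 96.8 CPM in those labelled NC. The log2 fold changes of KDM2A were 0.14 (SE 0.0679, adjusted p = 0.127) for sh1 over NC and 0.01 (SE 0.0680, adjusted p = 0.926) for sh4 over NC. KDM2A therefore does not check which organoid libraries carry a hairpin, and sh1 and sh4 below mean the libraries so labelled. In NPCs, KDM2A averaged 92.1 ± 4.15 CPM with sh1, 95.1 ± 4.21 CPM with sh4 and 186 ± 15.3 CPM with NC (SD, n = 5 each).

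In day 30 organoids the HOX genes as a whole stood several-fold higher in the libraries labelled sh1 and sh4. Their summed level was 355, 424 and 434 CPM in the sh1 libraries and 269, 480 and 329 CPM in the sh4 libraries, against 70.2, 78.0 and 75.0 CPM in the NC libraries. Every sh1 and sh4 library lay above every NC library. The sum came to 404 ± 43.2 CPM with sh1, 359 ± 109 CPM with sh4 and 74.4 ± 3.91 CPM with NC (SD, n = 3 each). Of the 39 genes, 37 had at least 10 counts over the sh1 libraries and 36 over the sh4 libraries, against 23 over the NC libraries, and 1, 0 and 4 genes had no count at all. In bulk RNA, fewer cells that use a gene and less of its RNA per cell cannot be told apart.

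**Figure D1:**
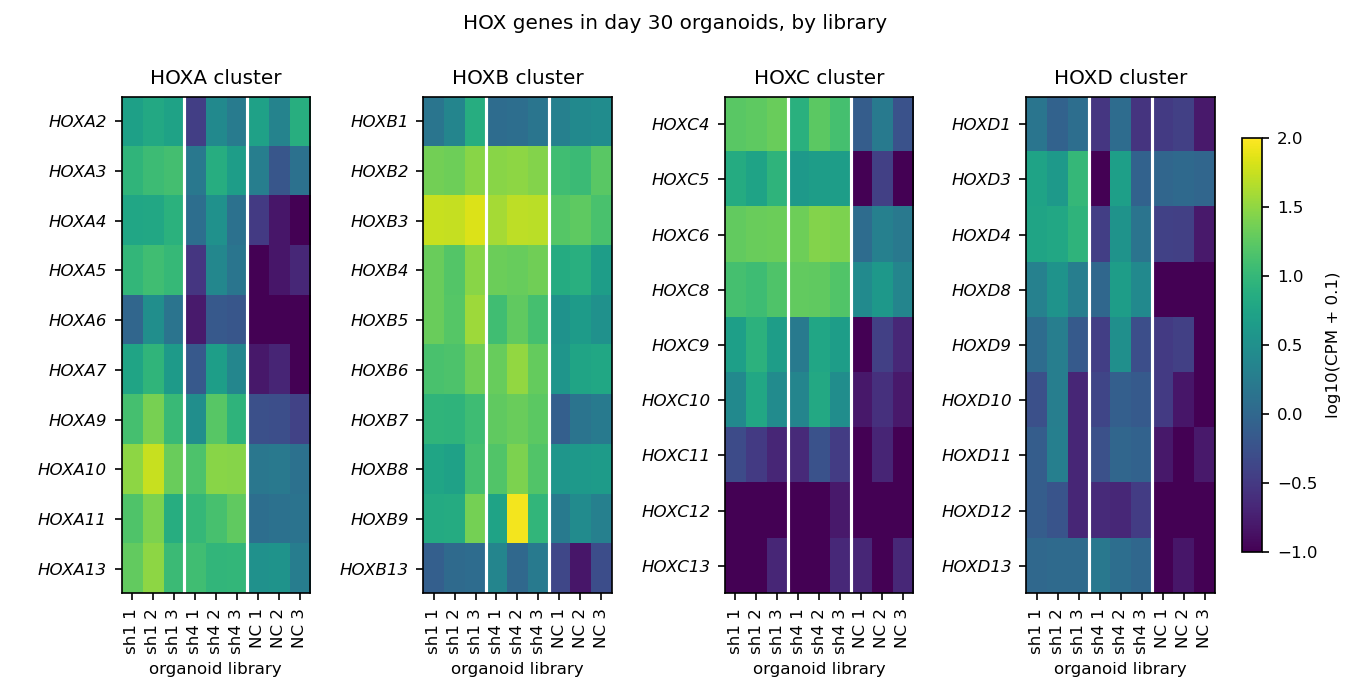
Level of HOX genes (rows, ordered by cluster position) in each organoid library (columns: sh1, sh4, then NC), as log10(CPM + 0.1). Most rows are brighter in the sh1 and sh4 columns than in the NC columns, and HOXB9 in sh4 replicate 2 (88.4 CPM) is the brightest cell.

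With no filter on low counts, so that all 39 genes are counted, 31 were called higher in sh1 than in NC organoids and 0 lower. For sh4 over NC, 31 were higher and 1 was lower (HOXA2). A call is an adjusted p under 0.05 with a log2 fold change of at least 1 in edgeR's quasi-likelihood test, and the same unfiltered test called 7.33% of all genes higher for sh1 and 13.2% for sh4. The median log2 fold change of the 39 genes was 2.99 for sh1 and 2.85 for sh4, or 2.92 and 2.73 with genes without an NC count set at their bound, while that of all genes was 0.00 in both. Both comparisons use the same 3 NC libraries, so they are not independent.

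The values per gene below come from the filtered fit, which 34 HOX genes passed. With sh1, 27 of the 34 were higher and 0 lower, where 12.1% of all 19704 tested genes were higher and 7.92% lower. With sh4, 29 were higher and 1 lower, where 20% of all tested genes were higher and 15.5% lower. Genes that pass the filter through the group in which they are high had to differ, so these counts describe the fit and support nothing further. Of the tested HOX genes, 31 had every sh1 library above every NC library and 26 every sh4 library above every NC library, and over all tested genes this held for 32.3% and 36.6%. In all, 25 genes were called higher with both labels. HOXD1 and HOXD3 were called higher with sh1 and not sh4, and HOXB2, HOXB8, HOXB9 and HOXD9 with sh4 and not with sh1, which does not show by itself that the labels differ at these genes.

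**Figure D2:**
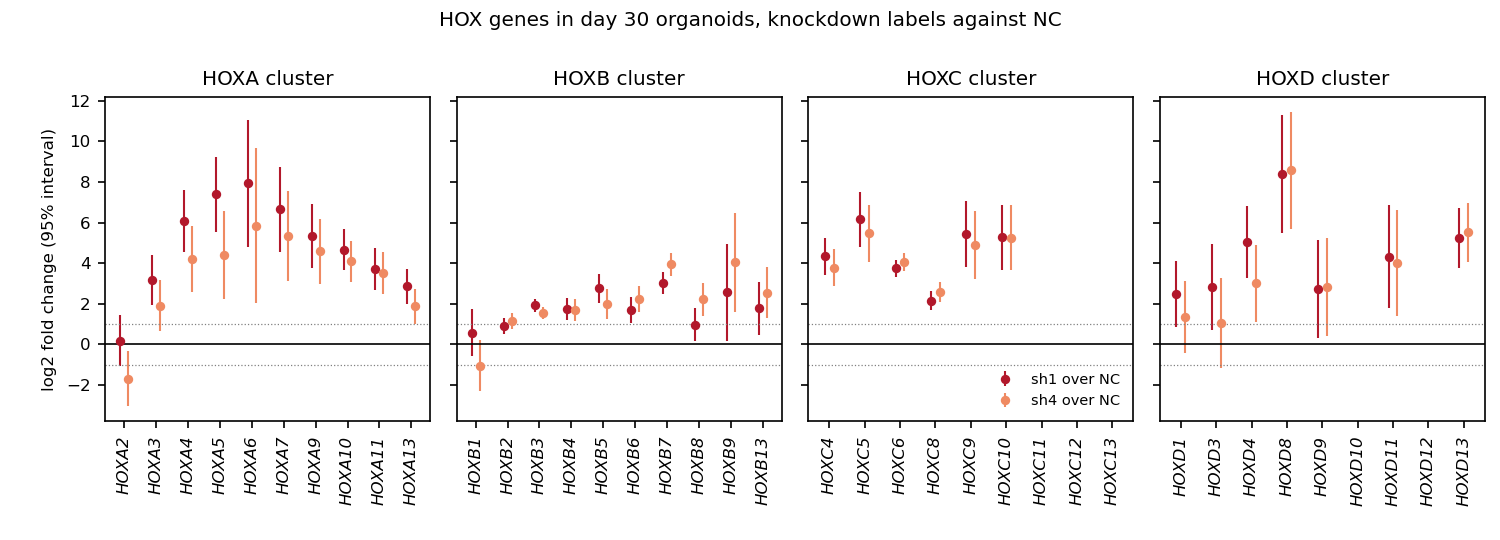
Log2 fold change with its 95% interval for sh1 over NC (dark red) and sh4 over NC (orange) in organoids, for HOX genes that passed the filter; names with no point did not. Dotted lines mark the fold threshold of 1 in either direction. In the HOXA cluster the values are close to or below 0 at HOXA2 and reach 7.92 for sh1 at HOXA6, which has no NC count, while HOXB genes lie mostly between 1 and 4.

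By position, the anterior genes (paralog groups 1 to 3) gained least. In the unfiltered fit 4 of 8 were called higher with sh1 and 4 of 8 with sh4, with median log2 fold changes of 1.53 and 1.19. Of the 15 central genes (groups 4 to 8), 14 were higher with sh1 and 15 with sh4, with medians of 4.33 and 3.96. Of the 16 posterior genes (groups 9 to 13), 13 were higher with sh1 and 12 with sh4, with medians of 3.35 and 3.77. These are descriptions of the lists, with no test between them. Summed levels of the anterior genes were 115 ± 20.2 CPM in sh1, 86.7 ± 14.1 CPM in sh4 and 39.5 ± 3.66 CPM in NC organoids. Central genes summed to 174 ± 33.2, 167 ± 32.2 and 26.1 ± 4.46 CPM in sh1, sh4 and NC organoids, and posterior genes to 115 ± 44.2, 106 ± 63.3 and 8.76 ± 1.48 CPM (SD, n = 3 each). Of these sums the anterior one was the highest in every NC library, and the central one in every sh1 and sh4 library except sh1 replicate 2, where the posterior genes (166 CPM) stood above the central ones (155 CPM).

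By cluster, HOXC and HOXD were low in the control. HOXC genes summed to 63.8, 70.5 and 73.0 CPM in sh1 and 56.8, 80.4 and 66.3 CPM in sh4 organoids, against 4.53, 8.21 and 4.52 CPM in NC. HOXB, the cluster with the highest sum in each group, held 158, 146 and 244 CPM in sh1, 164, 288 and 176 CPM in sh4 and 49.7, 57.1 and 55.6 CPM in NC. HOXA summed to 132 ± 48.4, 71.8 ± 24.8 and 12.9 ± 1.82 CPM, and HOXD to 21.1 ± 2.87, 10.5 ± 8.22 and 1.60 ± 0.471 CPM, in sh1, sh4 and NC organoids (SD, n = 3 each). In every cluster the lowest sh1 or sh4 library lay above the highest NC library.

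Compared between genes per kilobase of exon, HOXB2 led in the NC organoids at 5.69 ± 1.41 CPM per kb. Next came HOXB3 at 2.11 ± 0.268, HOXA2 at 1.98 ± 1.09, and the central genes HOXB8 at 1.96 ± 0.160 and HOXB6 at 1.95 ± 0.506. Their ranges overlapped with each other and with those of HOXB5 (1.76 ± 0.329) and HOXB4 (1.71 ± 0.427). In sh1 organoids HOXB5 (12.0 ± 5.30 CPM per kb), HOXB2 (10.6 ± 1.77) and HOXA10 (9.69 ± 4.87) led, with ranges that overlapped. In sh4 organoids HOXB9 (13.3 ± 18.1 CPM per kb, carried by 1 library), HOXB2 (12.5 ± 0.746) and HOXB7 (12.3 ± 1.08) led (SD, n = 3 each). HOXB2, a regulator of hindbrain segments, was thus among the leaders in all 3 groups.

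Among the anterior genes, HOXB3, a hindbrain gene, had 56.4, 54.2 and 70.1 CPM in sh1 and 39.7, 49.8 and 48.2 CPM in sh4 organoids, against 15.9, 17.7 and 13.7 CPM in NC. All 6 sh1 and sh4 libraries lay above all 3 NC libraries. Its log2 fold changes were 1.93 (SE 0.139, adjusted p = 7.97e-06) and 1.54 (SE 0.139, adjusted p = 8.71e-06) for sh1 and sh4 over NC. HOXB2 measured 22.9, 21.8 and 29.4 CPM in sh1, 28.9, 31.2 and 27.8 CPM in sh4 and 11.8, 11.0 and 17.1 CPM in NC, with log2 fold changes of 0.90 (adjusted p = 0.00246) and 1.14 (adjusted p = 0.000268). Only the sh4 value passed the fold threshold, and on library totals alone it fell short too, at 0.87, while the sh1 value passed at 1.12 without NC replicate 3. HOXA3 rose with both labels, by log2 fold changes of 3.19 (SE 0.549) and 1.91 (SE 0.553), with the lowest sh4 library (1.49 CPM) below the highest NC library (1.82 CPM).

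HOXA2, which patterns the hindbrain and the second pharyngeal arch, did not follow its neighbours. It had 4.99, 6.32 and 5.21 CPM in sh1 and 0.260, 2.53 and 1.68 CPM in sh4 organoids, against 5.08, 2.08 and 7.45 CPM in NC. The sh1 and NC libraries overlapped, and 2 of the 3 sh4 libraries lay below all NC libraries. The log2 fold change was 0.18 (95% interval -1.07 to 1.43) for sh1 and -1.69 (SE 0.610, adjusted p = 0.0322) for sh4. The sh4 call was lost without sh4 replicate 3 (-1.77), NC replicate 1 (-1.66) or NC replicate 3 (-1.25), and the sh4 value was -2.29 without sh4 replicate 2. The same call was lost with the replicate block (-1.76) and with the compared groups alone (-1.69). The sh1 value turned to -0.19 without NC replicate 2.

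HOXB1, which marks rhombomere 4 of the hindbrain, had 1.37, 2.25 and 7.29 CPM in sh1 and 1.04, 1.12 and 1.38 CPM in sh4 organoids, against 1.93, 2.56 and 2.81 CPM in NC. All sh4 libraries lay below all NC libraries, while sh1 replicate 3 lay far above and the other sh1 libraries below or within NC. No difference from NC passed the test, with values of 0.58 for sh1 (95% interval -0.59 to 1.75) and of -1.04 for sh4 (95% interval -2.31 to 0.23). Without sh1 replicate 3 the sh1 value was -0.44 and the sh4 value was -1.02 with an adjusted p of 0.0163, a call. HOXD1 and HOXD3 were higher with sh1, at 2.50 (adjusted p = 0.0185) and 2.82 (adjusted p = 0.0337), and every sh1 library lay above every NC library for both genes. Their values stayed of like size with 1 library left out, but the adjusted p then missed the threshold in several fits. HOXD1 was not called without sh1 replicate 1 (2.30), NC replicate 1 (2.65) or NC replicate 3 (2.11). HOXD3 was not called without sh1 replicate 1 (2.94), sh1 replicate 3 (2.36) or any 1 NC replicate (2.80 to 2.87), nor by DESeq2 (2.81, adjusted p = 0.0608). In the sh4 libraries HOXD3 measured 0, 4.88 and 0.779 CPM, against 0.883, 0.960 and 0.880 CPM in NC, so its sh4 value of 1.07 rests on replicate 2 and was -1.16 without it. For HOXD1 the sh4 value was 1.36, and 0.02 without replicate 2. Of the exon bases of HOXD1 and HOXD3, 58.1% and 74.1% are shared with other annotated genes, the antisense RNA HAGLR among them.

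Among the central genes, HOXA5, needed for lung and neck structures in the mouse, had 9.65, 11.9 and 10.1 CPM in sh1 and 0.195, 2.35 and 1.38 CPM in sh4 organoids, against 0, 0.0533 and 0.117 CPM in NC. All sh1 and sh4 libraries lay above all NC libraries, and the sh1 libraries lay above the sh4 ones. With 3 counts in all over the NC libraries, the ratio of scaled counts was 190 for sh1 (95% counting interval 64.6 to 922) and 24.2 for sh4 (7.92 to 120), intervals that cover counting error only. HOXA7, also at 3 NC counts, gave ratios of 113 (38.4 to 551) and 46.1 (15.4 to 227). Without sh4 replicate 2 the fitted log2 values for sh4 were 3.69 for HOXA5, against 4.40 with all libraries, and 4.54 for HOXA7, against 5.33. HOXA6 had no NC count and was at least 30.9-fold higher in sh1 and at least 7.32-fold higher in sh4 organoids, taking 3 counts over the NC group as the floor.

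HOXA4 had 5.87, 6.15 and 8.06 CPM in sh1 and 1.10, 3.18 and 1.20 CPM in sh4 organoids, against 0.221, 0.0533 and 0 CPM in NC. Its log2 fold changes were 6.07 (SE 0.674, adjusted p = 9.76e-05) and 4.21 (SE 0.724, adjusted p = 0.000556). They were 7.58 and 5.71 without NC replicate 1, which held most of its few NC counts, and the sh4 value was 3.54 without sh4 replicate 2. As in HOXA5, the 3 groups did not overlap. In HOXA4 to HOXA7, sh4 replicate 1 was the lowest sh1 or sh4 library each time (HOXA7: 0.584 CPM, against 4.65 and 2.28 CPM in the other sh4 libraries). Of the exon bases of HOXA4, HOXA6 and HOXA7, 47.3%, 40.1% and 62.5% are shared with other annotated genes, among them antisense RNAs. The sources used here do not say whether counting used strand, so reads of these genes and their partners cannot be told apart. HOXA5 shares none.

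HOXC6, used in brachial motor neurons, had 19.1, 20.6 and 21.1 CPM in sh1 and 21.8, 27.4 and 25.7 CPM in sh4 organoids, against 1.05, 1.92 and 1.52 CPM in NC. Replicates lay close together and both labels lay far above NC, with log2 fold changes of 3.75 (SE 0.190, adjusted p = 1.89e-06) and 4.05 (SE 0.190, adjusted p = 3.86e-07). HOXC4 had 17.2, 18.1 and 20.8 CPM in sh1 and 7.86, 17.3 and 12.9 CPM in sh4 organoids, against 0.663, 1.60 and 0.469 CPM in NC, with log2 fold changes of 4.33 (SE 0.409) and 3.78 (SE 0.409), or 5.02 and 4.46 without NC replicate 2. HOXC8, a thoracic gene with no shared exon, rose by 2.15 (SE 0.210) and 2.58 (SE 0.210). HOXC5 rose by 6.15 (SE 0.610) and 5.46 (SE 0.623), but its 5 NC counts all came from NC replicate 2, without which the fitted values were 9.94 and 9.25, and 59.9% of its exon bases are shared. So every HOXC gene of groups 4 to 8 rose with both labels, from very low NC levels except for HOXC8 at 2.92 CPM.

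Of the central HOXB genes, HOXB4, a gene also used by blood stem cells, had 20.5, 15.7 and 29.2 CPM in sh1 and 20.9, 19.8 and 22.3 CPM in sh4 organoids, against 6.90, 7.73 and 4.63 CPM in NC. The log2 fold changes were 1.76 (SE 0.243) and 1.70 (SE 0.243). HOXB5 rose by 2.76 and 2.00, HOXB6 by 1.72 and 2.24, and HOXB7 by 3.01 and 3.95 with sh1 and sh4 over NC. HOXB7 lay at 9.05, 8.79 and 11.6 CPM in sh1 and 18.3, 20.6 and 17.4 CPM in sh4 organoids, against 0.718, 1.33 and 1.58 CPM in NC, so here the sh4 libraries were the highest. HOXB8 rose with sh4, by 2.22 (SE 0.364, adjusted p = 0.000402), while its sh1 value of 0.98 (adjusted p = 0.0508) missed both thresholds and passed them without sh1 replicate 1 (1.17) or 2 (1.21).

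In the HOXD cluster the central genes are HOXD4 and HOXD8. HOXD8 had 1.97, 3.41 and 1.81 CPM in sh1 and 0.909, 4.59 and 2.58 CPM in sh4 organoids, against no count in any NC library. That makes it at least 43.1-fold higher with sh1 and at least 49.4-fold higher with sh4. HOXD4 had 5.54, 6.26 and 8.93 CPM in sh1 and 0.260, 3.41 and 1.32 CPM in sh4 organoids, against 0.276, 0.267 and 0.0586 CPM in NC. Its log2 fold changes were 5.04 (SE 0.796) and 3.00 (SE 0.845, adjusted p = 0.00998), the sh4 value being 1.94 without sh4 replicate 2, and 80.5% of its exon bases are shared with another gene.

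**Figure D3:**
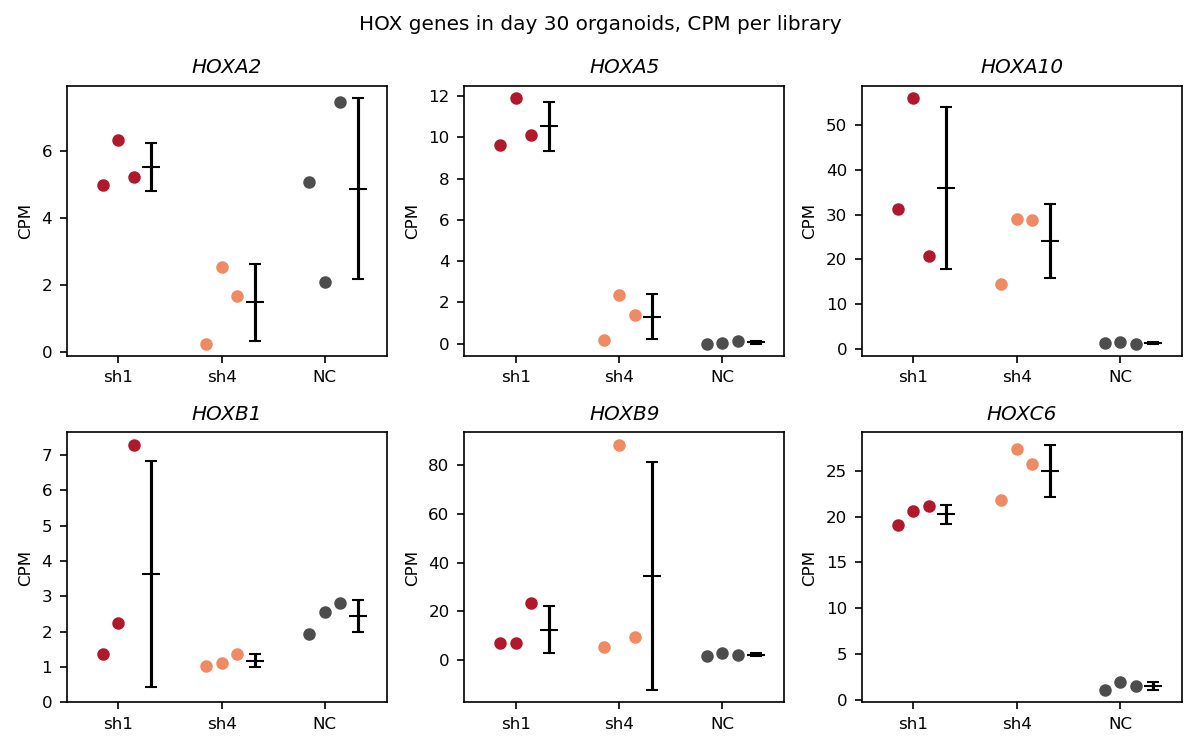
CPM per organoid library (points) with mean and SD (bars) for 6 HOX genes in sh1, sh4 and NC organoids. HOXA10 and HOXC6 separate sh1 and sh4 from NC, HOXA5 also separates sh1 from sh4, HOXA2 and HOXB1 overlap NC with sh1, and HOXB9 is set by sh4 replicate 2.

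Among the posterior genes, HOXA10, a gene of the lumbar region and the reproductive tract, had 31.2, 55.9 and 20.7 CPM in sh1 and 14.6, 29.1 and 28.7 CPM in sh4 organoids, against 1.44, 1.55 and 1.23 CPM in NC. Every sh1 and sh4 library lay far above NC. The log2 fold changes were 4.67 (SE 0.451, adjusted p = 4.2e-05) and 4.10 (SE 0.450, adjusted p = 3.01e-05). HOXA9, HOXA11 and HOXA13, genes of the trunk, limb and hindgut, rose as well, by 5.33 and 4.58, by 3.71 and 3.52 and by 2.86 and 1.88 with sh1 and sh4 over NC. The sh4 value of HOXA9 was 3.90 without sh4 replicate 2. For HOXA13, the last gene of the cluster, this meant 18.9, 30.8 and 11.0 CPM in sh1 and 11.8, 9.35 and 9.65 CPM in sh4 organoids, against 3.20, 3.36 and 1.76 CPM in NC.

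HOXB9 was the most uneven member. It had 6.75, 6.87 and 23.5 CPM in sh1 and 5.45, 88.4 and 9.29 CPM in sh4 organoids, against 1.60, 2.72 and 1.94 CPM in NC. All sh1 and sh4 libraries lay above NC, but sh4 replicate 2 stood far above the rest. The log2 fold change was 2.56 (adjusted p = 0.0763) for sh1 and 4.04 (SE 1.08, adjusted p = 0.00762) for sh4. Without sh4 replicate 2 the sh4 value was 1.82 (adjusted p = 0.0206), and the sh1 value, still 2.56, passed with an adjusted p of 0.00415. It also passed without sh4 replicate 1 (adjusted p = 0.0358), and was 1.69 (adjusted p = 0.263) without sh1 replicate 3. HOXB13, a prostate and tail gene, rose by 1.78 (adjusted p = 0.029) and 2.55 (adjusted p = 0.00249) at levels of 0.914, 1.57 and 0.265 CPM in sh1, sh4 and NC organoids. Its sh1 call was lost without sh1 replicate 2 (1.72) or 3 (1.66) or NC replicate 1 (1.98) or 2 (1.29).

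HOXC9 and HOXC10, thoracic and lumbar genes, rose by 5.44 (SE 0.729) and 4.90 (SE 0.740) and by 5.27 (SE 0.711) and 5.26 (SE 0.712) with sh1 and sh4 over NC. HOXC10 had 2.58, 6.26 and 2.69 CPM in sh1 and 2.21, 6.29 and 2.88 CPM in sh4 organoids, against 0.0552, 0.160 and 0.0586 CPM in NC. Both labels gave nearly the same levels here. Without NC replicate 2 the values were 6.53 and 5.98 for HOXC9 and 5.91 and 5.89 for HOXC10. HOXD13, the digit gene at the end of its cluster, had 0.932, 0.989 and 0.986 CPM in sh1 and 1.49, 1.12 and 0.899 CPM in sh4 organoids, against 0, 0.0533 and 0 CPM in NC. Its counts were 53, 57 and 1, a ratio of 52.3 (95% counting interval 8.98 to 2102) for sh1 and 62.6 (10.8 to 2516) for sh4. HOXD11 gave ratios of 23.7 (6.20 to 201) and 19.2 (4.94 to 165) over 2 NC counts, with 0.658, 1.87 and 0.110 CPM in the sh1 libraries, and its sh1 log2 fold change of 4.32 was 3.14 without sh1 replicate 2. HOXD9 was called higher with sh4 at 2.85 (adjusted p = 0.0384) and not with sh1 at 2.75 (adjusted p = 0.0606), and its sh4 value was 1.02 (adjusted p = 0.359) without sh4 replicate 2. The sh4 call of HOXD9 was also lost on library totals alone (2.61), without sh1 replicate 1 (2.85) and without NC replicate 1 (3.09), 2 (3.37) or 3 (2.30). Its sh1 value became a call with no filter (2.74), by DESeq2 (2.79), with the compared groups alone (2.74) and with the replicate block (2.91). The sh1 value was also called without sh4 replicate 1 or 2 (2.75 each).

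The HOX genes that did not pass the filter were HOXC11, HOXC12, HOXC13, HOXD10 and HOXD12, all posterior. HOXC11 had 13, 14 and 2 counts and HOXD10 43, 27 and 5 counts over the sh1, sh4 and NC libraries. HOXD12 had 23 and 8 counts with sh1 and sh4 and none with NC, at least 7.56-fold and at least 2.93-fold higher. HOXC12 had 0, 1 and 0 counts and HOXC13 had 2, 2 and 4, so no difference was detectable at this depth in either gene.

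Some HOX genes were called between the libraries labelled sh1 and sh4, at about the frequency of all tested genes. HOXA2, HOXA4, HOXA5, HOXA6, HOXB1 and HOXD4 were higher in sh1 than in sh4 organoids and HOXB8 was lower, 7 of the 34 tested. Over all tested genes 7.83% were higher and 11.2% lower, so with both directions together this count is near the background. The largest was HOXA5, at 2.99 (SE 0.548, adjusted p = 0.00179), followed by HOXA6 at 2.07 (SE 0.708) and HOXD4 at 2.04 (SE 0.616). HOXA4 was higher by 1.86 (SE 0.463, adjusted p = 0.00834), HOXA2 by 1.87 (SE 0.609) and HOXB1 by 1.62 (SE 0.558). HOXB8 was lower, at -1.25 (SE 0.345, adjusted p = 0.0139), and HOXB7 at -0.94 (adjusted p = 0.00436) fell short of the fold threshold. No posterior gene was called between the labels, though HOXA13, at 0.98 (adjusted p = 0.037), was at 1.24 and called without sh1 replicate 3. Among the HOXC genes, HOXC6 at -0.30 (95% interval -0.64 to 0.04) and HOXC8 at -0.43 (-0.85 to -0.01) had intervals within the fold threshold. Those of HOXC4 at 0.56 (-0.16 to 1.27), HOXC5 (-0.18 to 1.55), HOXC9 (-0.56 to 1.64) and HOXC10 (-1.02 to 1.05) reached past it.

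Of these 7 calls, those of HOXA4 and HOXA5 held in every alternative fit. The count was 3 without sh4 replicate 3, and other calls were lost without sh1 replicate 3 (HOXB1 at 0.58 and HOXD4 at 1.77), without sh1 replicate 2 (HOXA2 at 1.76 and HOXA6 at 1.43) or without sh4 replicate 2 (HOXB8 at -0.95 and HOXB1 at 1.58). HOXD1 (2.48), HOXD3 (3.99), HOXA3 (1.83), HOXA7 (2.12) and HOXA9 (1.44) became calls without sh4 replicate 2, and HOXB9 turned to 0.74. In that library HOXA3 to HOXA9, HOXD3, HOXD4 and HOXB9 all stood above the other sh4 libraries. HOXA3, at 1.28 (adjusted p = 0.052) in the main fit, was called in other fits too. These were no filter (1.27), DESeq2 (1.25), library totals alone (1.47) and the fit without NC replicate 2 (1.28). HOXA7 was also called with the replicate block (1.53).

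**Figure D4:**
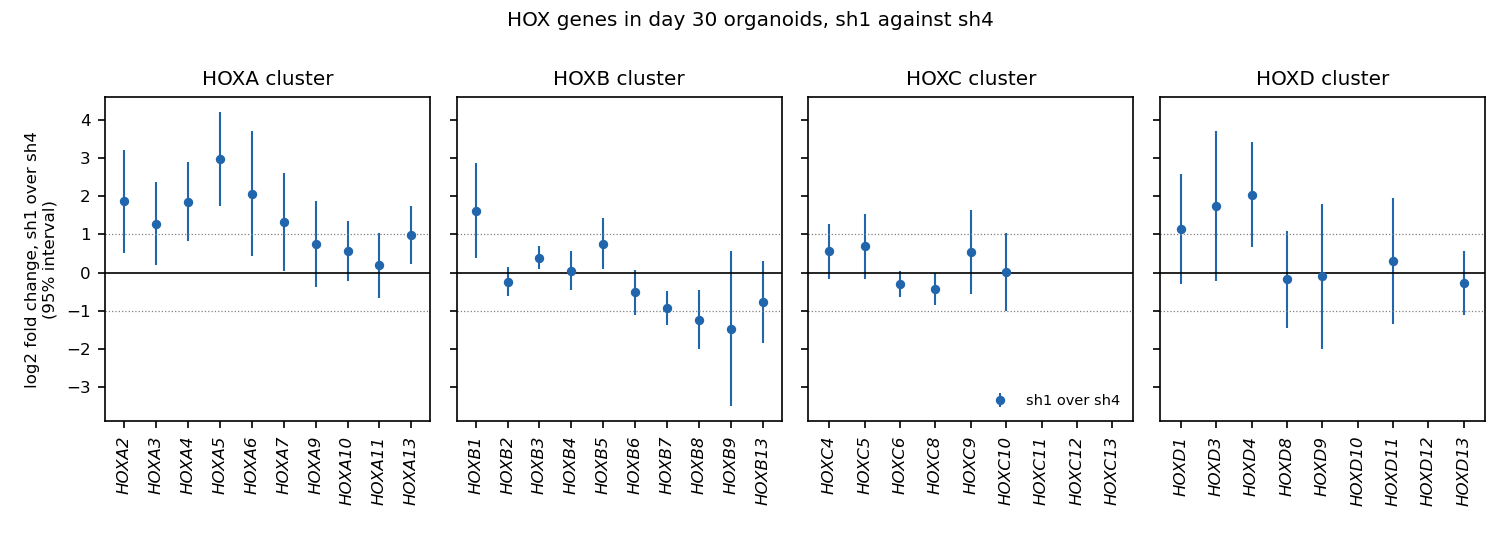
Log2 fold change of sh1 over sh4 organoids with its 95% interval for tested HOX genes. Values reach 2.99 at HOXA5 in the anterior and central part of the HOXA cluster, are -1.25 at HOXB8 and -1.48 at HOXB9 in the HOXB cluster, and intervals of all tested posterior genes except HOXA13 include 0.

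RNAs and genes next to the HOX genes were read from lists chosen with earlier results known. Of 18 noncoding RNAs of the clusters 11 were tested, and 10 rose with sh1 and 9 with sh4, where 12.1% and 20% of all tested genes were higher. Their medians were 3.53 and 2.97 on the log2 scale, while the median of all tested genes was 0.02 and -0.01. HOXA-AS2, antisense between HOXA3 and HOXA4, averaged 7.96 ± 0.862 CPM in sh1, 3.49 ± 2.24 CPM in sh4 and 0.426 ± 0.158 CPM in NC organoids (SD, n = 3 each), with log2 fold changes of 4.20 (SE 0.568) and 3.02 (SE 0.578). HOXA11-AS rose by 3.63 and 3.21, and HOTTIP, transcribed from beyond HOXA13, by 3.53 and 2.97. HAGLR, antisense in the HOXD cluster, and its neighbour HAGLROS were higher in sh1 than in sh4 organoids, by 1.62 (adjusted p = 0.0271) and 2.08 (adjusted p = 0.0495). Noncoding RNAs that share exon bases with HOX genes may share reads with them, which was not tested.

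Of 12 genes flanking the clusters 10 were tested, and 2 rose with sh1 and 3 with sh4, with medians of 0.34 and 0.63. Over all tested genes 12.1% were higher with sh1 and 20% with sh4, so these counts are near the background. EVX2, a homeobox gene beside HOXD13, rose by 2.53 (SE 0.373) and 1.59 (SE 0.384). SKAP2, an adaptor protein gene beside the anterior end of HOXA, averaged 17.8 ± 0.539, 16.6 ± 3.78 and 4.73 ± 0.226 CPM in sh1, sh4 and NC organoids, and rose by 1.91 and 1.81. HIBADH, on the other side of HOXA, was called with sh4 at 1.04 and not with sh1 at 0.65. SMUG1 was at 0.84 with sh4.

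Cofactors of HOX proteins were not called higher with either label. Over all tested genes 12.1% were higher and 7.92% lower with sh1, and 20% were higher and 15.5% lower with sh4. In a list of 9 genes the counts below are near those shares. Of 9 TALE homeodomain genes, 0 were called with sh1 (median 0.12 on the log2 scale), where PKNOX1 was at 0.49 and PKNOX2 at 0.63. With sh4 (median -0.40), 0 were higher and 2 lower, MEIS2 at -1.38 (SE 0.202) and PBX3 at -1.97 (SE 0.196), and PKNOX1 was at 0.77. MEIS2 measured 154 ± 31.8, 87.3 ± 24.3 and 227 ± 20.7 CPM in sh1, sh4 and NC organoids, so its RNA was abundant in all 3 groups.

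Among genes that induce or position HOX expression, movement went both ways. Of 19 tested, 6 rose and 9 fell with sh1, and 7 rose and 7 fell with sh4, with medians of -0.00 and -0.22, beside 12.1% higher and 7.92% lower of all tested genes for sh1 and 20% higher and 15.5% lower for sh4. RARB, a retinoic acid receptor and itself a retinoic acid target, averaged 57.5 ± 9.41 CPM in sh1, 31.8 ± 5.68 CPM in sh4 and 5.31 ± 0.217 CPM in NC organoids, and rose by 3.44 (SE 0.165) and 2.58 (SE 0.164). RARA and RARG rose with sh1, by 1.18 and 1.46. With sh4, CYP26C1, an enzyme that degrades retinoic acid, fell by 5.80 and GBX2, a gene of the hindbrain border, fell by 4.99 on the log2 scale. CYP26C1 measured 1.12 ± 0.696, 0.260 ± 0.234 and 15.0 ± 5.35 CPM in sh1, sh4 and NC organoids.

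Of 23 chromatin regulators of the clusters, 0 rose and 1 fell with sh1, and 1 rose and 6 fell with sh4, with medians of -0.16 and -0.39, beside 12.1% higher and 7.92% lower of all tested genes for sh1 and 20% higher and 15.5% lower for sh4. JARID2, a subunit of Polycomb complex PRC2, averaged 67.7 ± 2.93 CPM in sh1, 37.2 ± 4.15 CPM in sh4 and 169 ± 21.0 CPM in NC organoids, and its log2 fold changes were -1.32 (SE 0.105) and -2.19 (SE 0.109). With sh1, RING1 was at 0.55, short of the fold threshold. With sh4, KMT2A, a methyltransferase that keeps HOX genes active, fell by 1.48 and KDM6B, a demethylase that removes the Polycomb mark, fell by 1.15. Polycomb genes besides JARID2 were also among the 6 that fell with sh4, and the 1 that rose is a Polycomb gene too. With both directions together, calls in this list were no more frequent with either label than over all tested genes.

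Markers of several cell types also differed between the groups, some in the same direction as the HOX genes and some in the opposite one, and their part in the HOX results was not tested. In the counts below, the shares over all tested genes are 12.1% higher and 7.92% lower for sh1, and 20% higher and 15.5% lower for sh4. The 16 forebrain and midbrain factors summed to 145 to 245 CPM in sh1, 65.5 to 121 CPM in sh4 and 562 to 616 CPM in NC, and of 14 tested 2 rose and 5 fell with sh1, and 1 rose and 7 fell with sh4 (medians -0.22 and -1.54). DLX2 was at -3.13 and -4.97 for sh1 and sh4, SIX3 at -2.45 for sh1 and DLX1 at -4.98 for sh4.

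The 12 neural progenitor and neuron genes summed to 3794 to 4139 CPM in sh1, 1393 to 2261 CPM in sh4 and 5694 to 6408 CPM in NC organoids, and 6 fell with sh1 and 11 with sh4 with medians of -1.18 and -3.16 (PAX6 -3.56 and -4.41, SOX1 -2.64 and -4.30, SOX3 -3.03 and -4.43). Hindbrain and spinal cord factors, where HOX genes are normally used, summed to 155 to 158 CPM in sh1, 26.9 to 65.1 CPM in sh4 and 83.3 to 103 CPM in NC. Of 13 tested, 5 rose and 3 fell with sh1 and 0 rose and 5 fell with sh4 (medians 0.49 and -1.31). OLIG3 and IRX3 were higher with sh1, at 4.15 and 1.79, LBX1 was lower at -5.41, and with sh4 LHX5, LHX1, NKX6-1 and LBX1 were among those lower (-3.07, -5.09, -2.23 and -2.87). In this list 10 genes were higher and 1 was lower in sh1 than in sh4 organoids.

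Mesenchyme genes, the collagens among them, summed to 22322 to 25250 CPM in sh1 and 41852 to 51372 CPM in sh4, against 3221 to 4700 CPM in NC, and 11 of 12 rose with each label (medians 2.52 and 3.22). COL3A1 rose by 2.87 and 4.07, COL1A1 (2.44) and POSTN (3.07) with sh1 and DCN (4.61) and LUM (3.56) with sh4. Each of these genes was called higher with both labels. Endoderm and liver genes summed to 2820 to 8650 CPM in sh1, 16864 to 61875 CPM in sh4 and 56.2 to 358 CPM in NC, and 5 of 9 rose with sh1 and 8 of 9 with sh4 (medians 2.32 and 4.26). ALB, the liver gene for albumin, lay at 384 to 1124 CPM in sh1 and 1851 to 7351 CPM in sh4, against 0.0552 to 0.373 CPM in NC. CDH17 rose by 5.76 and 8.03 and APOA1 by 2.63 and 5.13. AFP rose with sh1, by 5.57, and was called higher with sh4 too. It averaged 4569 ± 2304 CPM in sh1, 28428 ± 19073 CPM in sh4 and 96.2 ± 124 CPM in NC organoids (SD, n = 3 each).

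Paraxial and lateral mesoderm genes summed to 337 to 358 CPM in sh1, 464 to 557 CPM in sh4 and 157 to 220 CPM in NC organoids. Of 10 tested, 4 rose and 2 fell with sh1, and 7 rose and 2 fell with sh4 (medians 1.29 and 1.86). TBX5, a gene of the forelimb and heart fields, rose by 6.92 and 6.08, HAND2 by 2.19 and 2.52, GATA6 by 1.95 with sh1 and FOXF1 by 2.11 with sh4. Endothelium and blood genes summed to 121 to 203, 439 to 633 and 128 to 170 CPM in sh1, sh4 and NC, with HBG1 at 0 throughout, and 3 of 6 tested rose with sh1 and 5 with sh4 (medians 1.13 and 2.10). PECAM1 rose by 1.65 and 2.40, SPI1 by 3.22 and 5.67 and PTPRC by 4.18 and 6.68, and KDR (1.81) and CDH5 (1.19) rose with sh4. Neural crest genes summed to 366 to 401, 187 to 283 and 150 to 207 CPM in sh1, sh4 and NC. Of 8 (medians 0.49 and -0.36), 2 rose with sh1 (SNAI2 1.79 and ETS1 1.97, with SOX10 at 1.51 not called), while 1 rose (SNAI2 1.85) and 3 fell (PAX3 -2.10, PAX7 -1.90 and FOXD3 -1.81) with sh4, where ETS1 was at 0.87.

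In NPCs, HOXB1 and HOXA2 were higher with both hairpins. HOXB1 had 34.0, 26.8, 35.3, 32.6 and 30.4 CPM with sh1 and 44.1, 32.1, 36.7, 36.8 and 29.2 CPM with sh4, against 9.49, 10.6, 10.6, 9.33 and 12.4 CPM with NC. All 10 knockdown libraries lay above all 5 NC libraries. The log2 fold changes were 1.60 (SE 0.111, adjusted p = 1.63e-10) for sh1 and 1.77 (SE 0.110, adjusted p = 2.86e-11) for sh4. HOXA2 had 2.01, 1.65, 1.73, 1.43 and 1.08 CPM with sh1 and 1.48, 1.40, 1.14, 1.79 and 1.62 CPM with sh4, against 0.209, 0.360, 0.218, 0.110 and 0.157 CPM with NC. Its knockdown libraries did not overlap with NC either, and the log2 fold changes were 2.84 (SE 0.281, adjusted p = 2.25e-08) and 2.77 (SE 0.281, adjusted p = 3.08e-08). Such separation was common among the genes tested in NPCs. Every sh1 library lay above every NC library for 37% of them and below for 39.6%. For sh4 the shares were 36.6% and 36.2%.

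**Figure D5:**
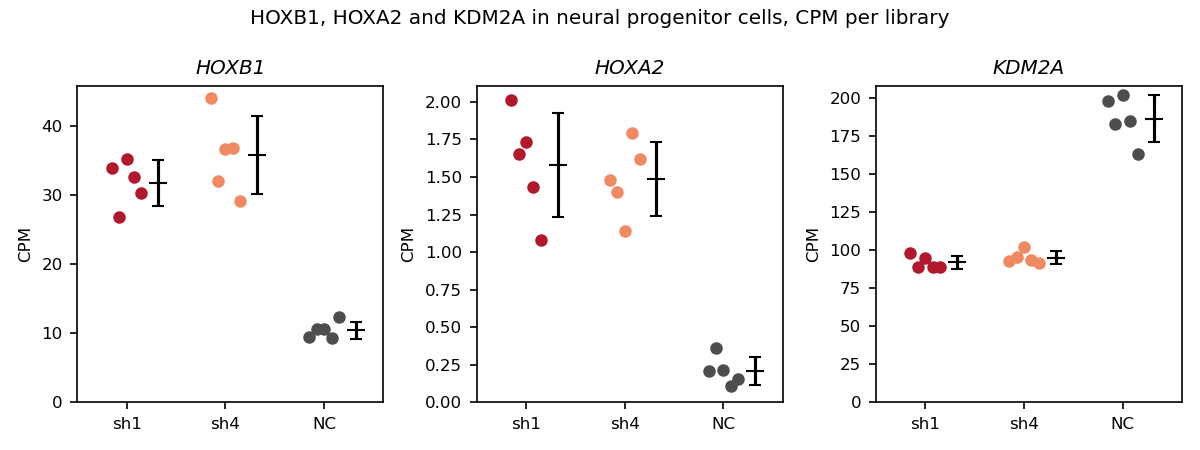
CPM per NPC library (points) with mean and SD (bars) for HOXB1, HOXA2 and KDM2A with sh1, sh4 and NC. HOXB1 and HOXA2 lie higher and KDM2A lies lower in all knockdown libraries, with no overlap with NC.

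HOXB1 and HOXA2 were the HOX genes that passed the filter in the NPC table, and both were called higher for sh1 (6.31% of tested genes higher, 12.1% lower) and for sh4 (6.55% higher, 11.6% lower). Of the 9860 genes tested there, 99.3% passed an adjusted p of 0.05 for sh1 over NC, and the highest unadjusted p was 0.148. Membership of this table thus goes with that difference, so a sh1 call in it is no independent finding. For sh4 over NC 88.0% passed, and sh4 is set against the same NC libraries, so the sh4 calls are not independent of that selection either. The other listed HOX genes did not pass the filter in NPCs. Values given below for HOXA7 and HOXD13 in NPCs come from the same selected table. Between sh1 and sh4, HOXA2 differed by 0.07 (95% interval -0.32 to 0.47) and HOXB1 by -0.17 (-0.38 to 0.04), with 0 calls in edgeR, 0 in DESeq2 and 0 HOX genes of these 2 at an unadjusted p under 0.05. Over all tested genes 2.18% were higher and 2.42% lower.

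HOXA7 and HOXD13 were near the detection limit in NPCs. HOXA7 had 6, 8 and 29 counts over the 5 libraries with sh1, sh4 and NC, and HOXD13 had 2, 6 and 17. So HOXA7 and HOXD13 had fewer counts in sh1 and sh4 than in NC libraries, at a few counts per library. In the unfiltered fit the log2 fold changes were -2.15 and -1.84 for HOXA7 and -2.75 and -1.47 for HOXD13 with sh1 and sh4 over NC, where the sh4 value of HOXD13 (adjusted p = 0.0633) was not called.

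In the same NPC table, limited as said above, 6.31% of tested genes were higher and 12.1% lower with sh1, and 6.55% were higher and 11.6% lower with sh4. The counts of TALE cofactors and chromatin regulators below are near these shares. Of 5 tested TALE cofactors, 0 were called with either hairpin. MEIS3 was at 0.36 and 0.42, PKNOX1 at -0.34 and -0.46, and MEIS1 at 0.24 with sh1. Of 9 tested inducers, 2 rose with sh1 (RARB 1.63 and GBX2 1.21) with CYP26A1 at 0.71 and GDF11 at -0.94, while 4 rose and 3 fell with sh4 (CYP26A1 2.14, EGR2 2.03 and CYP26C1 -2.33 had the smallest p). EGR2, a regulator of hindbrain segments, is known to activate HOXA2 and HOXB2 in the mouse. Of 18 chromatin regulators 2 fell with sh1 (KDM2A at -1.02 among them, with KDM6B at -0.95) and 1 with sh4, where KDM2A at -0.97 and SUZ12 at -0.57 were short of the fold threshold.

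The difference from NC was compared between the 2 systems, as the mean of sh1 and sh4 over NC in NPCs minus the same in organoids. The NPC table lists genes that differ between sh1 and NC and the organoid table is not so limited, so these tests are conditioned on a difference in NPCs and the sizes and shares below are not those of an unselected comparison. For HOXA2 the difference was 3.56 (SE 0.561, adjusted p = 3.62e-06) and for HOXB1 1.93 (SE 0.392, adjusted p = 9.9e-05), since both were higher than NC in NPCs with both hairpins while no organoid value was called higher. For HOXA7 it was -8.01 (SE 1.17, adjusted p = 1.2e-06) and for HOXD13 -7.56 (SE 1.06, adjusted p = 6.32e-07), both with higher values in organoids and lower values in NPCs. Those sizes depend on NC organoids and knockdown NPCs near 0 counts and are no bound. Neither gene passed the filter in NPCs, and both entered this fit through the sh1 and sh4 organoids in which they are high. Their p-values therefore support nothing further. Over the 10020 genes compared, 13.7% were called higher and 20.8% lower, and KDM2A differed by -1.05.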

How the data were processed

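Poly(A)-selected RNA was sequenced in 24 libraries (day 30 organoids, 3 per group, and NPCs, 5 per group), per the labels' protocols. The deposited values are expected counts per gene, 91% whole in the organoid table and 82.4% in the NPC table, and were rounded. STAR, featureCounts and GRCh38.p13 are named in the submitters' processing notes. Versions, and whether strand was used, are not given in the sources used here. NPC totals (12.7 to 20.2 M) cover listed genes only. Depth limits the precision, and the intervals of count ratios and the floors cover counting error only.

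Genes were filtered (filterByExpr, minimum count 10), scaled by TMM and tested with edgeR 4.0.16 (quasi-likelihood, 3 groups in 1 fit per table, R 4.3.3). P-values were adjusted by Benjamini-Hochberg over all tested genes, and calls needed an adjusted p under 0.05 and a log2 fold change of at least 1. In simulated data with 200 changed genes, 100% were recovered in the sh1 over NC comparison of each table (19413 organoid and 9820 NPC genes). The changed genes were not low in counts, and the size of change and the spread between libraries were fixed. This checks that the fit runs as meant and does not measure its power for HOX genes with few counts or uneven replicates. Replicates differed by more than counting noise in every pair (chi-square over degrees of freedom from 5.53 to 55.4 in organoids, from 2.65 to 33.4 in NPCs). None was therefore taken as the same library sequenced again. The check cannot tell separate cultures from repeat libraries of 1 culture.

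The members and the 13 gene lists were chosen with earlier results of these data known. Some HOX and list genes are not reported here by name. From each list, the 3 genes with the smallest adjusted p in a comparison are named, and all that were called where there were 5 or fewer. A gene named for 1 label may therefore have been called with the other too. Alternatives were other scalings and filters, DESeq2 1.42.0, fits of the compared groups alone, rounding down, the replicate number as a block, and leaving out each library. Exon lengths and overlaps are from GENCODE 29.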

Additional observations from a re-analysis of the deposited data

Results flagged for a closer look

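In 18 groups of libraries checked for 1 that stands apart, HOXA7 in NPCs was marked in the sh1 group, where replicate 5 had 0.205 CPM and the others 0 to 0.0559 CPM, and in the sh4 group, where replicate 5 had 0.270 CPM and the others 0 to 0.0550 CPM. Chance marks about 1 in 20 groups, and these values are a few counts each.

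The difference of sh1 and sh4 from NC differed between NPCs, whose table is limited to genes that differ there, and organoids (NPC minus organoid, log2) by 3.56 for HOXA2, 1.93 for HOXB1, -8.01 for HOXA7 and -7.56 for HOXD13. For KDM2A, the target, it differed by -1.05, with the fall seen in NPCs and not in organoids. HOXA7 and HOXD13 entered this comparison through the sh1 and sh4 organoids in which they are high, so their values support nothing further.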

How the results depend on the processing

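Over all settings, calls of HOX genes numbered 22 to 31 for sh1 over NC, 24 to 32 for sh4 over NC and 3 to 9 for sh1 over sh4 in organoids. Leaving out 1 library gave 25 to 30, 28 to 32 and 3 to 9. Calls that held in every setting that could test them were 24 of 27 for sh1 (not HOXB13, HOXD1 and HOXD3), 27 of 30 for sh4 (not HOXA2, HOXB2 and HOXD9) and 2 of 7 between the labels (not HOXA2, HOXA6, HOXB1, HOXB8 and HOXD4). In NPCs the counts were 2, 2 and 0 in all settings except with no filter, where they were 5, 3 and 1. Library totals alone moved the median of all organoid genes by -0.27 for sh4 over NC and by 0.23 for sh1 over sh4, and that of NPC genes by -0.14 for each hairpin over NC.

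Values that changed sign were few, and the cause was not tested. With 1 library left out at a time, sh1 over NC ran from -0.44 to 0.97 for HOXB1 and from -0.19 to 0.62 for HOXA2, and sh4 over NC from -1.16 to 1.64 for HOXD3 and from -0.02 to 0.05 for KDM2A. KDM2A was -0.27 on library totals alone. Between sh1 and sh4 such fits ran from -0.31 to 0.50 for HOXA11, -0.87 to 0.79 for HOXD11, -0.25 to 0.25 for HOXB4, -2.37 to 0.74 for HOXB9, -0.58 to 0.45 for HOXD8, -0.58 to 1.73 for HOXD9 and -0.52 to 0.59 for HOXC10. Library totals alone gave 0.09 for HOXD9 and 0.02 for HOXD8. HOXC10 was -0.02 with RLE size factors and with DESeq2 and -0.00 with the compared groups alone. In NPCs, HOXA2 between sh1 and sh4 ran from -0.02 to 0.19.

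In organoids, same-numbered libraries correlated at -0.16 to 0.04 (0 of 9 pairs over 0.1), so the replicate numbers showed no link there. In NPCs they correlated at -0.10 to 0.39 (9 of 15 pairs over 0.1), so a link between same-numbered libraries is possible. Some NPC pairs of unlike number correlated as much, such as sh1 replicate 3 with sh4 replicate 1 at 0.38. The main fit used no replicate block. With the replicate block the counts were 29, 30 and 8 in organoids and 2, 2 and 0 in NPCs, and HOXD9 between sh1 and sh4 was 0.29. Depth limits HOXC11 to HOXC13, HOXD10 and HOXD12 in organoids and HOXA7 and HOXD13 in NPCs.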
